A study of Mus musculus with 12 samples.

Results

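Blood cell integrins were examined as 10 genes, Itga2b, Itgb3, Itgam, Itgax, Itgal, Itgb7, Itgb2, Itga4, Itgb1 and Itga6, in a list of open chromatin regions of mouse blood cells. A region, or peak, was counted for an integrin when the list named that gene as its nearest promoter. By this rule 101 of the 84243 peaks belonged to the 10 genes, of 19040 genes named in the list. ATAC-seq marks open chromatin, because its transposase can insert adapters only where the DNA is exposed. The 12 samples were 2 replicates each of hematopoietic stem cells (HSCs), megakaryocyte progenitors (MkPs), erythroid progenitors (EPs), granulocyte/macrophages (GMs), B cells and T cells, all sorted from wild-type C57BL/6 mice aged 8 to 12 weeks. The labels give bone marrow as the source, and thymus for T cells. No treatment or transgene is given, and the groups differed in cell type, in the sort and, for T cells, in tissue. Proteins of some of the genes took part in those sorts. MkPs were gated on CD41, the product of Itga2b. GMs were gated on Mac1, formed by the products of Itgam and Itgb2, while Mac1+ cells were gated out of the other populations.

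The study combined the peaks of the 6 cell types and filtered them to 1 list without overlaps. A peak there shows that DNA was open in at least some of the cells, and not in which. Peaks called in a cell type may be missing from the list. The list holds no value per sample and its score is 0 at every peak. Depth was therefore unknown, no value has a replicate error, no test between groups could be made and the labelled cell types could not be checked. The counts that follow are a complete inventory of the list. They describe which parts of the integrin genes were called open, and groups of genes are set side by side without a test.

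Integrins are cell surface receptors made of an alpha and a beta chain, which hold cells to matrix or to other cells and switch from a low to a high affinity state when signals from inside the cell bring talin and kindlin to the beta tail. In blood, the pair made from Itga2b and Itgb3 is the platelet fibrinogen receptor. Itgam codes for the alpha chain of the myeloid receptor Mac1, and Itgax for CD11c, another myeloid alpha chain. Itgal codes for the alpha chain of LFA-1 on lymphocytes and other leukocytes, and Itgb7 for the beta chain of the gut-homing receptor. Itgb2 is the common beta chain of Mac1, LFA-1 and the receptor that contains CD11c, and Itgb1 is the common beta chain of many matrix receptors. Itga4 codes for an alpha chain that pairs with either Itgb1 or Itgb7, and Itga6 for an alpha chain of laminin receptors. The first pair was treated as platelet integrins, Itgam and Itgax as myeloid, Itgal and Itgb7 as lymphoid, and the other 4 genes as shared by several lineages.

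Of the 10 integrin promoters, 4 held the 8-base string GAGGAAGT, a form of the site of the ETS factor PU.1, which is known for driving myeloid and B cell genes. These 4 promoters were chosen after the search and are shown because the string was found in only 4.79% of all promoter peaks. Each sequence is given 5′ to 3′ on the strand of its gene, from GRCm38 (mm10) as released by RefSeq, with the string or its reverse complement in capitals.

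Itga2b promoter (chr11:102470225-102470272, minus strand): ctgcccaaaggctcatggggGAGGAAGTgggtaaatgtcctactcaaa

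Itgal promoter (chr7:127296224-127296271, plus strand): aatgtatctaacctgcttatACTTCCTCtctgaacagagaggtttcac

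Itgb2 promoter (chr10:77530282-77530329, plus strand): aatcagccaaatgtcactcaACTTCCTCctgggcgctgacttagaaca

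Itgb7 promoter (chr15:102231908-102231955, minus strand): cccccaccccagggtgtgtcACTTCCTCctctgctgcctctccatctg

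The site in Itga2b began 369 bases upstream of the transcription start site (TSS), that in Itgb2 68 bases upstream and that in Itgal 16 bases upstream. The site in Itgb7 began at the first transcribed base. In Itgal, Itgb2 and Itgb7 the string lay on the strand opposite to the gene. The promoter peaks of Itgam and Itgax, the myeloid pair, did not hold it, and their copies lay in distal peaks, as did 2 copies close to Itga4. The 3 distal stretches that follow were chosen for display after their values were seen, since they carry the string near genes whose promoter peaks lack it.

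Itgam upstream peak (chr7:128048893-128048940, plus strand): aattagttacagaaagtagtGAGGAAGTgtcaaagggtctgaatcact

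Itgax upstream peak, in an intron of Itgam (chr7:128115454-128115501, plus strand): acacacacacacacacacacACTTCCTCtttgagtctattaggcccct

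Itga4 upstream peak (chr2:79254843-79255077, plus strand): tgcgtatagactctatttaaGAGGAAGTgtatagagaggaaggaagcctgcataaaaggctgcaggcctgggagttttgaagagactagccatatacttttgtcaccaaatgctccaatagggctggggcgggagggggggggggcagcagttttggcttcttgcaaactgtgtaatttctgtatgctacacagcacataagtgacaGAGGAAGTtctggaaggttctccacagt

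Every one of the 10 integrin genes had a promoter peak, that is, a peak centred within 500 bp of the TSS, and none had more than 1. Over all genes in the list, 64.5% had a promoter peak and 60.4% had exactly 1. The peaks sat close to the start: 9 of the 10 centres were within 100 bp of the TSS. Itgam was centred on the TSS base itself. Itgb3 was centred 2 bp upstream, Itgb2 12 bp, Itgb7 28 bp, Itga4 31 bp, Itgax 63 bp and Itgb1 81 bp upstream, while Itga6 was centred 23 bp and Itgal 59 bp downstream. Itga2b was the exception, with its centre 247 bp upstream, the member nearest to the limit from inside. The nearest peak outside the limit belonged to Itga4, at 593 bp upstream, so that Itga4 carried a pair of neighbouring peaks at its start. For Itgb2 and Itgax the start used in the list differed by 22 bp and 18 bp from the reference start of RefSeq, and for the other 8 genes the starts were the same.

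The integrin promoters lay on both sides of the usual CpG content. CpG-rich promoters are typical of widely active genes, and CpG-poor promoters of genes used in few tissues. The median promoter peak of the whole list held 38 CpG dinucleotides in its 499 bp, with a GC content of 63.3%. Itga2b held 5, Itgax 6, Itgb7 7, Itgam 8, Itgb2 11 and Itgal 13, and these 6 genes include both myeloid and both lymphoid integrins and 1 of the platelet pair. Fewer CpGs than in Itga2b were found in only 2.7% of all promoter peaks, and fewer than in Itgal in 11.3%. Itga4 was intermediate with 20. Itgb3, Itgb1 and Itga6 held 45, 50 and 59, and 87.3% of promoter peaks held fewer than Itga6. The subunits of the platelet receptor differed in this respect, with a GC content of 52.7% in the Itga2b promoter peak and 67.5% in that of Itgb3. In all, 7 of the 10 promoter peaks had a GC content under the median of the list. The 150 bases before the TSS of a pair of genes of each kind are shown to make this visible, with every CpG in capitals.

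Itgam CpG-poor (chr7:128062490-128062639, plus strand): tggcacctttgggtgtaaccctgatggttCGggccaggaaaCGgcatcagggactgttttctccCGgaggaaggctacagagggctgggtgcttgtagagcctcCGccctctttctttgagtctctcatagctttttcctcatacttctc

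Itgb2 CpG-poor (chr10:77530220-77530369, plus strand): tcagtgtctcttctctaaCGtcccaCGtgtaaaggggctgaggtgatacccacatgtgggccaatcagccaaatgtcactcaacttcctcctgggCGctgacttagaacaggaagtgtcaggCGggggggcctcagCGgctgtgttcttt

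Itgb3 CpG-rich (chr11:104607850-104607999, plus strand): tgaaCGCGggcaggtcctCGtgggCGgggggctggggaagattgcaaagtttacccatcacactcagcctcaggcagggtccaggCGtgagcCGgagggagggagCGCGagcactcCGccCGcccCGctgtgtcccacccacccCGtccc

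Itgb1 CpG-rich (chr8:128685504-128685653, plus strand): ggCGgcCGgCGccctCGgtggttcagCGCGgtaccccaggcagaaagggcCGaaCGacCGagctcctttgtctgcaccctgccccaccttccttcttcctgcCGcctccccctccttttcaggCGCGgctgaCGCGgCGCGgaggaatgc

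Beyond the promoters, the integrins differed more. The other 91 peaks (90.1%) were distal, against 84.4% of the whole list. Their number per gene ran from 2 at Itgb7 to 28 at Itga4. In total Itgb7 had 3 peaks, Itga2b and Itgax 4 each, Itga6 6, Itgal 7, Itgam and Itgb2 10 each, Itgb1 11, Itgb3 17 and Itga4 29. The median integrin had 8.5 peaks, while the median gene of the list had 3 and the upper quartile was 5. Itga4 had more peaks than 99.5% of genes and Itgb3 more than 96.9%, whereas Itgb7 had more than 45.1%, which is near the middle of the list.

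**Figure D1:**
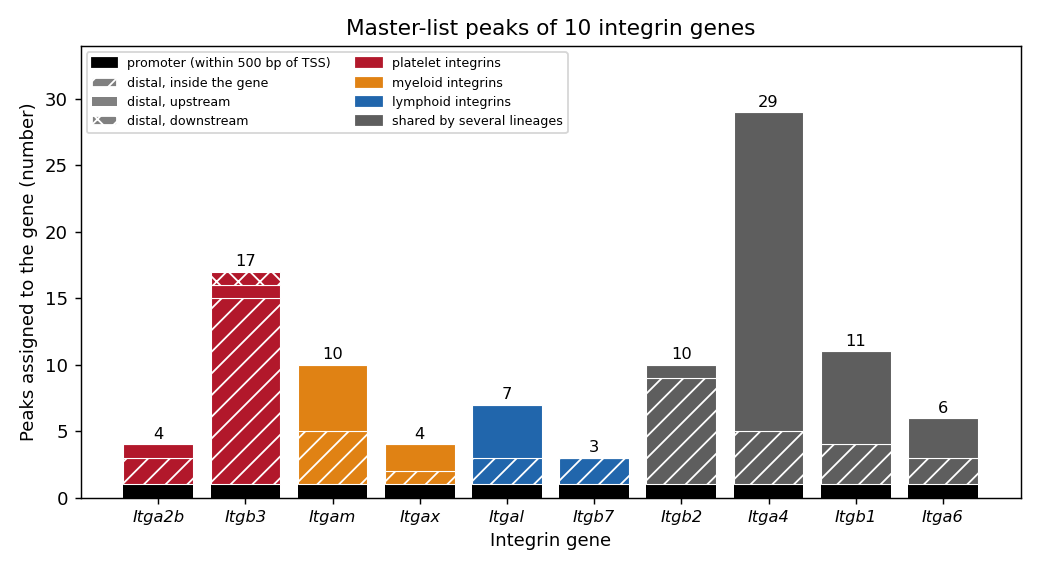
Number of peaks assigned to each integrin gene, by place (black, promoter; hatched, inside the gene; plain, upstream; crossed, downstream) and coloured by integrin group. Each gene has 1 promoter peak, Itgb3 has most of its peaks inside the gene and Itga4 has most of its peaks upstream.

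**Figure D2:**
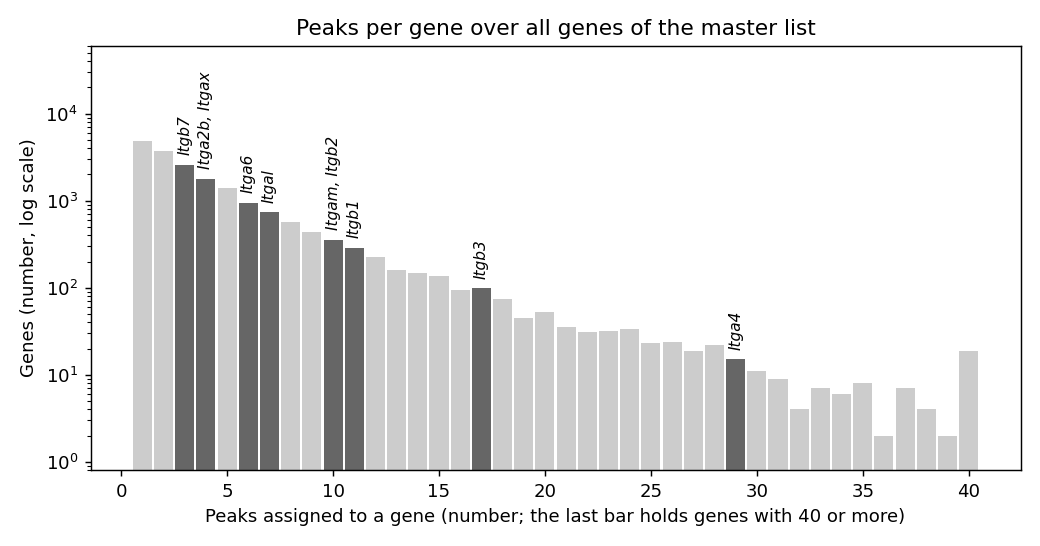
Histogram of the number of peaks per gene over the 19040 genes of the list, with genes on a log scale and the bars that contain integrins in dark grey. The integrins are spread from 3 peaks (Itgb7) to 29 (Itga4), with Itga2b and Itgax at 4.

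Grouped by lineage, the platelet integrins had 21 peaks, a mean of 10.5 per gene. The myeloid integrins had 14, a mean of 7.0, and the lymphoid integrins had 10, a mean of 5.0. The 4 shared genes had 56, a mean of 14.0. The single genes of the groups overlapped: the platelet pair had 4 and 17 peaks, the myeloid pair 4 and 10, the lymphoid pair 3 and 7, and the shared genes from 6 to 29. With 2 genes in 3 of the groups, the order of the means rests on single genes. Without an error on the counts, it cannot be read as a difference between lineages. Partners in a receptor also differed in number. Itga2b had 3 distal peaks against 16 at its partner Itgb3, and Itga4 had 28 against 10 at Itgb1 and 2 at Itgb7. Itgam and Itgb2, which form Mac1, had 9 distal peaks each.

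The number of peaks a gene can collect depends on how far away the next gene starts. Itga4 has the neighbours Ube2e3 and Cerkl, whose starts lie 559941 bp apart, and its 29 peaks came to 5.18 per 100 kb of that stretch. Itgb2, in a stretch of only 65842 bp, reached 15.2 per 100 kb, the highest of the 10, followed by Itgal at 9.82 and Itgam at 7.99. Itgb7 had 5.72, Itga2b 3.69, Itgax 3.59 and Itgb3 3.3. The median over the 15825 genes with a neighbour on both sides was 2.78. Itga6 (1.84) and Itgb1 (1.56) lay under it. For Itga6 this turned with the assignment, because the list also names non-coding genes in its stretch. By nearest protein-coding start Itga6 had 3.68, above a median of 3.07 over 15756 genes with a peak by that rule. Itgb1 stayed under this median and the other 8 genes above. On this scale the leukocyte beta chain Itgb2 stood above Itga4 and Itgb3, which had the larger raw counts.

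The distal peaks of the platelet integrins lay mostly inside the genes. Of their 19 distal peaks, 16 were in the gene, compared with 5 of 12 for the myeloid, 4 of 8 for the lymphoid and 17 of 52 for the shared integrins. Over all 10 genes, 42 distal peaks were in the gene, 48 upstream and 1 downstream. Of the 58466 distal peaks whose named gene has a reference transcript in RefSeq, 42.2% were inside it and 39.3% upstream. The 42 of 91 integrin peaks in the gene were near the share of the list. The 48 upstream peaks were above its share, with 24 of them at Itga4, and the 1 downstream peak was below the rest of the list. Placing also differed between single integrin genes. Itgb3 accounted for 14 of the 16 platelet peaks in the gene. Its peaks ran through the gene from 1205 bp to 59624 bp after the TSS, with 4 in intron 1, 2 in intron 2 and the last in the 3′ UTR, and the median gap between neighbouring Itgb3 peaks was 4151 bp. A single Itgb3 peak lay upstream, at 11342 bp, and a single peak lay downstream, 160257 bp from the TSS and well beyond the gene, which is 62474 bp long. Itga2b, a gene of 16587 bp, had peaks in intron 4 (2617 bp) and intron 12 (8017 bp). Its intron 4 peak was annotated to a CpG island, with a GC content of 63.5% and 31 CpGs, against 5 in its promoter peak. The remaining distal peak of Itga2b lay 17298 bp upstream, in an intron of Gpatch8 and on a B2 repeat. Itga2b and Itgb3 are on the same chromosome, but their starts are 2138117 bp apart.

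**Figure D3:**
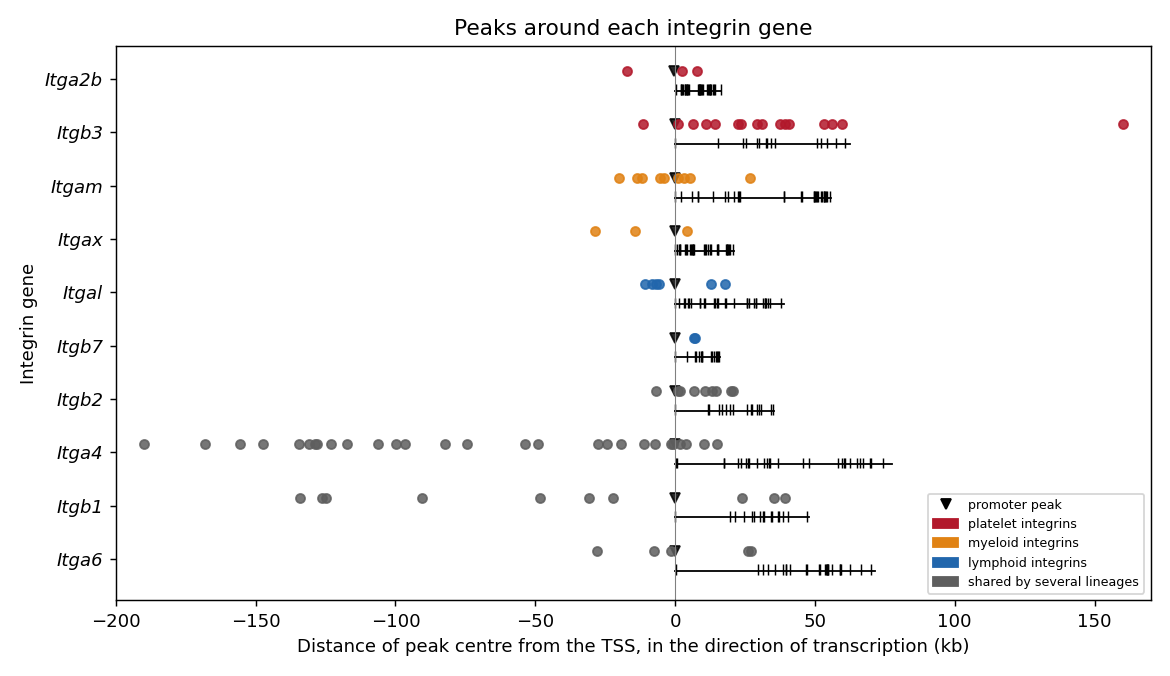
Position of each peak relative to the TSS of its integrin gene, in kb in the direction of transcription (black triangles, promoter peaks; coloured circles, distal peaks), above a line that shows the length of the gene with its exons as ticks. Itgb3 peaks fill the gene, and Itga4 and Itgb1 peaks reach more than 100 kb upstream.

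Itga4 had the opposite arrangement. Of its 28 distal peaks 24 were upstream, and the 4 in the gene were all in intron 2, between 1720 bp and 14892 bp after the TSS, although the gene has 27 introns. The upstream peaks reached from 593 bp to 189912 bp, and 11 of them were more than 100 kb away, all annotated as intergenic. Their median gap, taken over all Itga4 peaks, was 5110 bp, so the peaks formed a chain and not a single remote group. Itgb1 was the only other gene with upstream peaks at that range. Its 7 upstream peaks lay between 22281 bp and 134074 bp away, 3 of them beyond 100 kb, and its 3 peaks in the gene were in introns 3, 11 and 14. No Itgb1 peak lay between the promoter peak and 22281 bp on either side.

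Itgb2 peaks were packed into the first part of the gene. Of 9 distal peaks, 8 were in introns, 4 of them in intron 1, and they lay from 1047 bp to 20802 bp after the TSS of a gene of 35339 bp. The remaining peak was 6866 bp upstream. Itga6 had 2 peaks in intron 1, at 25967 bp and 27271 bp, and 3 upstream peaks between 1538 bp and 27876 bp. These 3 were annotated to an intron of another transcript, and 3 further peaks inside Itga6 were assigned to other genes. Over the 10 genes, 39 peaks lay in introns of their own gene, and 20 of these were in the first or second intron. Of these 20, 6 were at Itgb3, 4 each at Itgb2 and Itga4, 3 at Itgam, 2 at Itga6 and 1 at Itgb7. Itga2b, Itgax, Itgal and Itgb1 had none. The same share was not taken over the whole list, so the count cannot be read as particular to integrins.

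The myeloid genes are neighbours. Itgam and Itgax lie 66910 bp apart on chromosome 7, in the same direction, followed after 44396 bp by Itgad, another alpha chain that pairs with Itgb2. Itgal lies on the same chromosome, 766380 bp from Itgam. Itgam had 5 upstream peaks, from 3893 bp to 20015 bp, and 4 in the gene, from 974 bp in intron 1 to 26700 bp in intron 12. Both upstream peaks of Itgax, at 14166 bp and 28620 bp, lay in introns 24 and 12 of Itgam, so the nearest-promoter rule gave to Itgax peaks that are inside Itgam. The remaining distal peak of Itgax was in its intron 8, at 4263 bp. Repeats lay under 7 of the 12 distal peaks of the myeloid pair, under 4 of 19 of the platelet pair, 1 of 8 of the lymphoid pair and 9 of 52 of the shared genes. In all 21 of 91 distal integrin peaks were centred on a repeat, against 17.9% of all distal peaks.

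The lymphoid integrins had the fewest distal peaks of the groups, although Itgal had more peaks in all than 80.4% of genes. Itgal had 4 upstream peaks, between 5897 bp and 10891 bp, and 1 peak each in intron 11 (12796 bp) and exon 16 (17811 bp). Itgb7 had 2 peaks, at 6613 bp in intron 2 and at 7260 bp in exon 3. The exon peak had a GC content of 65.5%, the highest of the distal integrin peaks. The median distance of a distal peak from the TSS was 7682 bp for the lymphoid, 8556 bp for the myeloid, 23490 bp for the platelet and 27667 bp for the shared integrins. Over the 10 genes it was 20802 bp, close to the 22261 bp of all distal peaks. The share within 10 kb of the TSS was likewise near that of the list, with 26 of 91 peaks or 28.6%, compared with 28.9%.

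The sequence of the peaks was then searched for 9 strings known as binding sites of blood factors, on both strands. For GATA factors the string was AGATAA, for RUNX it was TGTGGT and for ETS factors GGAAGT, which is also part of the PU.1 string GAGGAAGT. For C/EBP it was TTGCNNAA, and AP-1 and NF-E2 were searched as TGANTCA. The E-boxes were searched as CAGCTG and as CAGGTG in separate counts, and CTCF by its longer consensus. GATA1, RUNX1 and NF-E2 are regulators of megakaryocytes, and PU.1 and C/EBP of myeloid cells. A match describes the letters in the peak and does not show that a factor was bound.

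In the distal peaks of the 10 genes, most strings were about as frequent as in all distal peaks. The ETS string was in 41 of 91 (45.1%, against 43.9% of the list), RUNX in 42 (46.2%, against 42.5%) and GATA in 30 (33.0%, against 26.9%). C/EBP was in 19 (20.9%, against 20.7%) and AP-1 in 16 (17.6%, against 16.9%). The E-box CAGCTG was in 27 (29.7%, against 30.4%) and CAGGTG in 32 (35.2%, against 32.9%). PU.1 was in 12 (13.2%, against 10.2%). The string furthest from the list was CTCF, the insulator factor, with 2 of 91 peaks (2.2%, against 8.74%).

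For some strings single groups or genes stood away from the sum. PU.1 strings were in 6 of 12 distal peaks of the myeloid integrins, 4 at Itgam and 2 at Itgax, and the Itgax peak in intron 8 held 3 copies. They were in 1 of 19 platelet, 1 of 8 lymphoid and 4 of 52 shared distal peaks. RUNX strings were in 12 of 19 platelet distal peaks, 10 of them at Itgb3, and CAGGTG was in 11 of 19, 10 of them at Itgb3. In the central 200 bp of the peaks, CAGGTG was left in 6 of 16 distal Itgb3 peaks and in 0 of the 3 of Itga2b, against 16.0% of all distal peaks. The AP-1 and NF-E2 string was in 2 of 19 platelet and 4 of 12 myeloid distal peaks, against 16.9% of the list. It was in 0 of 8 lymphoid and 10 of 52 shared distal peaks. C/EBP strings were in 3 of 12 myeloid and 2 of 19 platelet distal peaks, against 20.7% of the list. They were in 2 of 8 lymphoid and 12 of 52 shared distal peaks. GATA strings were about as frequent in the platelet (42.1%), myeloid (41.7%) and lymphoid groups (37.5%), and in 26.9% of the shared group. By gene they were in 8 of 16 distal peaks at Itgb3, 12 of 28 at Itga4, 4 of 9 at Itgam, 2 of 6 at Itgal, 2 of 10 at Itgb1, 1 of 3 at Itgax and 1 of 2 at Itgb7, and in none at Itga2b, Itgb2 and Itga6. In the central 200 bp, GATA was left in 3 of 16 at Itgb3 and 4 of 28 at Itga4, against 12.7% of all distal peaks. It was left in 2 of 9 at Itgam, 2 of 6 at Itgal and 1 of 2 at Itgb7, and in none at Itgb1 and Itgax. Across whole peaks, GATA and RUNX strings occurred together in 5 of 16 distal peaks at Itgb3 and 4 of 28 at Itga4. Itgam had 1 such peak and the other 7 genes none. Over the 10 genes both strings were in 10 of 91 distal peaks, near the 11.5% of all distal peaks. The peaks of one gene share a neighbourhood and are not replicates, so these counts are given without a test.

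**Figure D4:**
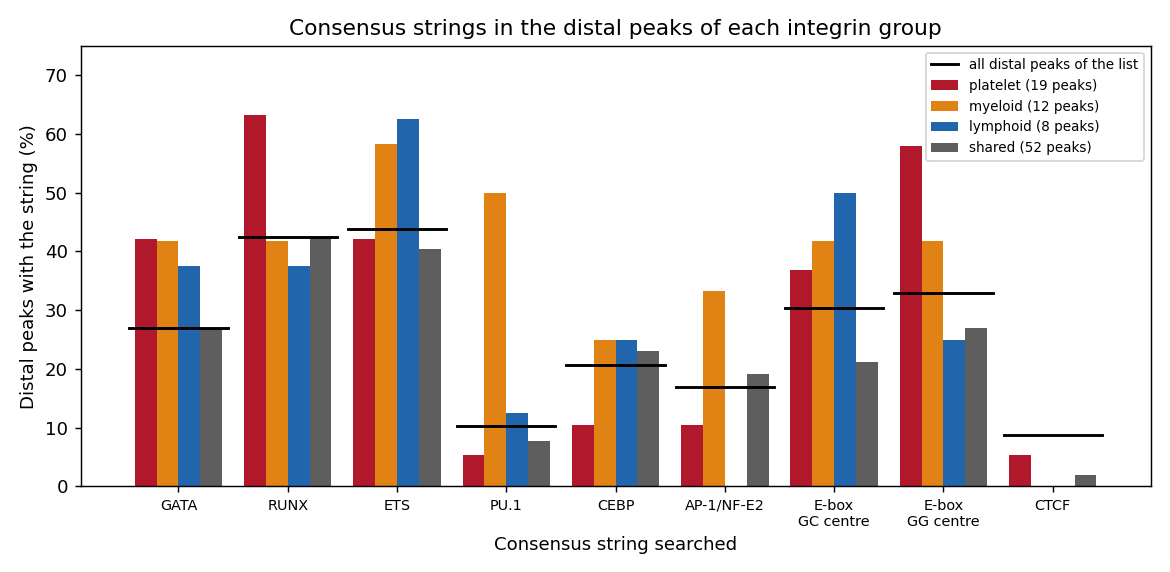
Percentage of distal peaks with each consensus string for the platelet (19 peaks), myeloid (12), lymphoid (8) and shared integrins (52), with a black line at the percentage over all distal peaks of the list. The E-box with a GC centre is the first and that with a GG centre the second E-box string of the text. The myeloid bar for PU.1 stands at 50.0% over a line at 10.2%, and each bar of a small group changes by many points with 1 peak.

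Stretches of 2 Itgb3 intron 1 peaks with both strings, and of an Itga4 intron 2 peak with 2 GATA strings, are shown with GATA and RUNX strings or their reverse complements in capitals. The Itgb3 stretches were picked as short ones among such peaks, and the Itga4 peak was the only peak of that gene with 2 GATA strings.

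Itgb3 intron 1 (chr11:104614276-104614396, plus strand): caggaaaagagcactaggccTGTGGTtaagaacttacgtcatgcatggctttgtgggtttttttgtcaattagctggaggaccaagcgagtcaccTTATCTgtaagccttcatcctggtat

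Itgb3 intron 1, second peak (chr11:104618915-104619001, plus strand): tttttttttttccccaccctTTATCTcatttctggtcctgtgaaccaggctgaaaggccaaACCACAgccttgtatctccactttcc

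Itga4 intron 2 (chr2:79259352-79259528, plus strand): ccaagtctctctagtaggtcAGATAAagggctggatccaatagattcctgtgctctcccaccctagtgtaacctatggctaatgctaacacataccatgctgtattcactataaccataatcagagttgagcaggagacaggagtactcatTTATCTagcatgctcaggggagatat

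In the first Itgb3 stretch the RUNX string came before the GATA string, and in the second the GATA string came first. Both GATA strings pointed against the direction of the gene. The first Itga4 string pointed along the gene and the second against it.

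In the 10 promoter peaks, the strings were present as follows. GATA was in 1 (8.66% of all promoter peaks), at Itgax. RUNX was in 5 (19.6%), at Itga2b, Itgam, Itgax, Itgb2 and Itga4. ETS was in 5 (36.1%), which were the 4 genes with the PU.1 string and Itgax. C/EBP was in 1 (11.6%), at Itgb7, and AP-1 in 1 (6.8%), at Itgax. CAGCTG was in 6 (26.1%), CAGGTG in 3 (31.3%) and CTCF in none (1.99%). Of the CpG-rich promoter peaks, that of Itgb1 held none of the 9 strings, that of Itga6 1 and that of Itgb3 2. Of the CpG-poor ones, that of Itgax held 5, those of Itga2b, Itgb7 and Itgb2 4 each, that of Itgal 3 and that of Itgam only 1. Both platelet promoter peaks held CAGCTG and neither held GATA.

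The remaining genes of the family, together with genes that activate integrins or act as their ligands, give a frame for these values. All 16 other integrin genes had a peak, with a median of 5. Of the 16, 10 had a promoter peak, which is near the 64.5% over all genes in the list. The 6 without one were Itga5, Itga11, Itgad, Itgae, Itgb5 and Itgb6. All 10 genes examined here had one, but these were chosen with earlier results of these data known. Itga9 had 29 peaks, as many as Itga4, and Itga2, the collagen receptor chain of platelets, had 14. Itga1, Itgav and Itgb6 had 10 each. Itgad, next to Itgax, had 5 peaks, all distal. Of 8 genes that act in integrin activation, 7 had a promoter peak and no peak was named for Ilk. These counts are by gene name, so a peak at a gene may be named for a neighbour. Apbb1ip, the adaptor that links Rap1 to talin, had 17 peaks, Rap1b, the main platelet Rap1, had 10 and Rap1a had 7. Of 10 ligand genes, 8 had a peak and 4 had a promoter peak. The 64.5% over the list covers only genes with a peak, which were 7 of the activation genes and 8 of the ligand genes. Vwf, which codes for von Willebrand factor, had 14 peaks, Icam2, a ligand of LFA-1, had 8, and Lama5, a laminin chain, had 4, whereas of the fibrinogen genes Fga and Fgb had none and Fgg had 3, all distal.

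How peaks are given to genes changed the integrin counts unequally. Linking each peak to the nearest RefSeq protein-coding start left 9 of the genes at the same count and raised Itga6 from 6 to 12, for a total of 107. Counting peaks within the gene and 10 kb on each side gave 78, with Itga4 down from 29 to 8, Itgb1 from 11 to 4 and Itgb2 up from 10 to 14. The 4 peaks gained at Itgb2 were assigned to Fam207a and Pttg1ip in the list. The basal plus extension rule, which lets a gene reach out to the next promoter or at most 1 Mb, gave 172. Under it Itga4 had 47, 16 of them named for Ube2e3 in the list, Itga6 24, Itgb1 23, Itgb3 20, Itgb2 14, Itgam 13, Itgax and Itgal 9, Itgb7 8 and Itga2b 5. Itga4 had the most peaks by 3 of the 4 rules, and Itgb3 by the gene and its flanks, with 15.

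**Figure D5:**
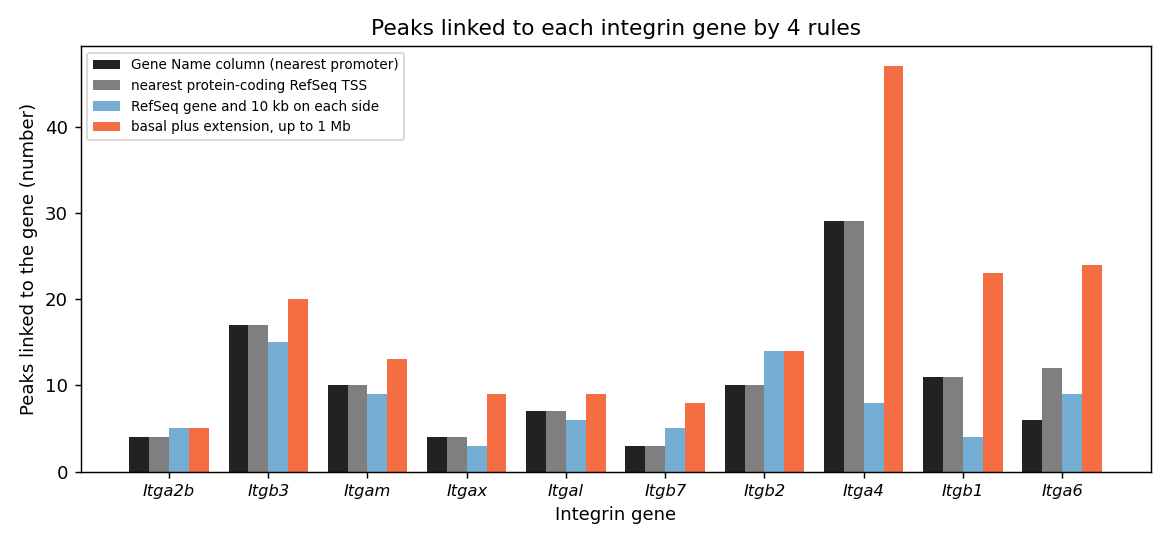
Number of peaks linked to each integrin gene by 4 rules: the gene named in the list, the nearest protein-coding RefSeq TSS, the RefSeq gene with 10 kb on each side, and basal plus extension up to 1 Mb. Itga4 falls from 29 to 8 when only the gene and its flanks are counted and reaches 47 by basal plus extension.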

How the data were processed

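ATAC-seq was performed on 12 samples, 2 for each of 6 cell types. The authors aligned reads to mm10 with the ENCODE pipeline and took the reproducible peaks of each cell type. They combined these and filtered them with chromVAR to 1 list of 499 bp peaks that do not overlap. The list was annotated with HOMER (version 4.10.2 in the submitters' processing notes). The start, end, gene name, annotation and distance to the TSS were those the authors deposited, in bp. The score that the authors deposited was 0 at all 84243 peaks and was not used. No column belonged to a single sample, so no sample entered a test.

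Peaks were assigned by gene name, and called promoter peaks within 500 bp of a TSS and distal otherwise. Genes, introns and sequence came from RefSeq for GRCm38.p6. Strings were matched exactly, on either strand and across each peak, and the search was tested on simulated sequence. Alternatives were promoter widths, assignment rules, merging of centres under 1000 bp apart, group membership and the central 200 bp of peaks. The 10 genes and the lists were chosen with earlier results of these data known. Named genes were the 10 members, the 3 genes with the most peaks and those with 0 in each other list, and neighbours that hold reassigned peaks. The other integrin genes without a promoter peak were also named. For each member the nearest and the farthest distal peak were named, and other peaks were named after their values were seen. Python 3.11.15, numpy 2.4.6, pandas 2.3.3, pysam 0.24.0 and matplotlib 3.10.9 were used.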

Additional observations from a re-analysis of the deposited data

How the results depend on the processing

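The list is pooled over cell types and has no depth, so no value has an error. A gene without a peak shows only that no peak kept in the list was named for it. The 10 promoter peaks became 9 within 100 bp, 12 within 1000 bp and 11 by the HOMER promoter class. Distal peaks ranged from 83 to 92 over 3 other limits. The 101 peaks became 93 when centres under 1000 bp apart were counted as 1, 107 by nearest RefSeq start and 78 by the gene and its flanks, but 172 by basal plus extension, a rule that lets genes share peaks. By that rule the mean was 11.0 per myeloid gene (7.0 by name), 8.5 per lymphoid gene (5.0) and 12.5 per platelet gene (10.5). With Itga4 counted as lymphoid that mean was 13.0, above the platelet mean of 10.5, so the order of the lineages depended on where this gene was put. In the central 200 bp of the peaks, which is less sequence, the number of integrin peaks with a string fell by a factor of more than 1.5 for 5 of 9 strings (CAGGTG from 35 to 13, GATA from 31 to 12), while PU.1 went from 16 to 14. Peaks per 100 kb by nearest start, and strings in the central 200 bp gene by gene, were added after the data were seen. No paired analysis was possible because the list carries no replicate.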
